A study of Mus musculus with 4 samples.

Results

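The 9 genes Acta2, Tagln, Myh11, Myl9, Cnn1, Des, Mylk, Pdgfrb and Rgs5 mark the mural cells of blood vessels, the smooth muscle cells of arteries and the pericytes of capillaries. They were chosen by name: every probe set whose platform annotation lists 1 of these symbols alone was taken, which gave 19 of the 45101 probe sets and 9 of the 18193 named genes on the array. Of these, 13 belong to the 7 contractile genes (Acta2, Tagln, Myh11, Myl9, Cnn1, Des and Mylk) and 6 to the 2 pericyte genes (Pdgfrb and Rgs5).

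Smooth muscle cells of the vessel wall contract when myosin light chain kinase phosphorylates the regulatory light chain of smooth muscle myosin, which then pulls on actin filaments. Pericytes lie on capillaries, are recruited during vessel growth by platelet-derived growth factor from the endothelium, and in the central nervous system help to form the blood-brain barrier. Many contractile genes are driven by serum response factor, a transcription factor that binds the CArG box and works with the coactivator myocardin. Mural cells make up a small share of the cells of brain and spinal cord, so these transcripts come from a minor part of the tissue.

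The tissue was brain, hindbrain and spinal cord of mice, from which total RNA was amplified in 2 ways and measured on 4 arrays. A Nugen kit gave cDNA for 2 of them, and T7-based amplification gave antisense RNA, aRNA, for the others. In both preparations the labels number the arrays 0 and 1. What the numbers stand for, the strain, age and number of animals, and whether the preparations shared an RNA are not given in the sources used here. Each value below is a deposited intensity of 1 probe set on 1 array, and differences are on the scale of log2(intensity + 16).

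The promoters of Acta2 and Myl9 are shown because they hold CArG boxes and because both genes were among those higher on cDNA. The sequences are RefSeq windows of build GRCm38.p6, from 250 bases before to 50 bases after a gene start, on the gene's own strand, with the boxes in capitals.
Acta2, chr19:34255324-34255623, minus strand: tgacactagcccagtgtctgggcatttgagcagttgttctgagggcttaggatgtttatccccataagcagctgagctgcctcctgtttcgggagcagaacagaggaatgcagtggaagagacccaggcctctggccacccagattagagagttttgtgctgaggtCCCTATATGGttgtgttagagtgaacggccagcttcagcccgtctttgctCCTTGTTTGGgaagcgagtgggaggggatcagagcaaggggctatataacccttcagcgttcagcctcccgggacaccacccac
Myl9, chr2:156775214-156775513, plus strand: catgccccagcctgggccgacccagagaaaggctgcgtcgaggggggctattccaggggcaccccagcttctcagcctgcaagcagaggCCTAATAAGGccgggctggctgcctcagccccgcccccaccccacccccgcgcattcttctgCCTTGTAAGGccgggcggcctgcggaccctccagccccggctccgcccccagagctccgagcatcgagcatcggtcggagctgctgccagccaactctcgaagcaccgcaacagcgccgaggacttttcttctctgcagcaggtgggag
The CArG box was searched as CC, then 6 letters that are A or T, then GG, a form that reads alike on both strands. A looser form allowed 1 of the 6 letters to be G or C. The strict box stood 161 bases upstream of the Myl9 start, and the other 3 boxes, 99 bases upstream in Myl9 and 84 and 34 bases upstream in Acta2, had the looser form. Of all 32851 windows in the table, 1.63% held the strict box and 9.98% a box in either form. Of the 5 contractile genes with a window in the table, 2 held a box. The windows of Des, Cnn1, Mylk and Rgs5 held no box in these letters.

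All 4 arrays had been scaled to a 2% trimmed mean of 2500.02, and their median intensity lay between 338 and 386. Background was taken as the 95th percentile of 27 control probe sets for Bacillus transcripts, which on arrays 0 and 1 was 212 and 249 for cDNA, against 123 and 126 for aRNA. The neuronal genes Snap25, Syt1, Rbfox3, Tubb3 and Nefl lay above background on all 4 arrays, as did the astrocyte and oligodendrocyte genes looked up. Of 5 Hox genes of the hindbrain and spinal cord, Hoxa5 alone lay above it on every array. One array stood apart in sex-linked transcripts. Xist, made in female cells, read 3913 and 5812 on cDNA arrays 0 and 1 at 1436936_s_at. There it read 359 on aRNA array 0 and 44312 on aRNA array 1. On aRNA array 0 it lay under background at 1427262_at (22.0) and 1427263_at (4.83). The Y-linked Eif2s3y read 8896 on aRNA array 0 at 1417210_at, 94.7 on aRNA array 1, and 226 and 11.0 on cDNA arrays 0 and 1. In these transcripts the RNA of aRNA array 0 read as male and that of aRNA array 1 as female. Unlike aRNA array 0, cDNA array 0 was high in Xist. In whole-tissue RNA, fewer cells of a type and less RNA per cell cannot be told apart, and the labels do not say whether arrays came from separate animals, so p-values measure only the spread between these arrays.

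Contractile genes of smooth muscle gave more signal with cDNA than with aRNA, led by Tagln, Mylk, Myh11, Myl9 and Acta2. Of the pericyte genes, Pdgfrb was higher on cDNA, while Rgs5 differed by 0.50 and did not pass the test. Over all 19 probe sets, limma at an adjusted p under 0.05 called 7 higher with cDNA and 0 lower. A further 3 did not pass, and 9 had values too low to be tested. Among the 7, Tagln and Pdgfrb probe set 1417148_at passed the filter on low values through the cDNA arrays alone. Of the 22519 tested on the array, 20.2% were called higher with cDNA and 22.9% lower. The same 7 probe sets were called with each array left out in turn, aRNA array 0 included.

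**Figure D1:**
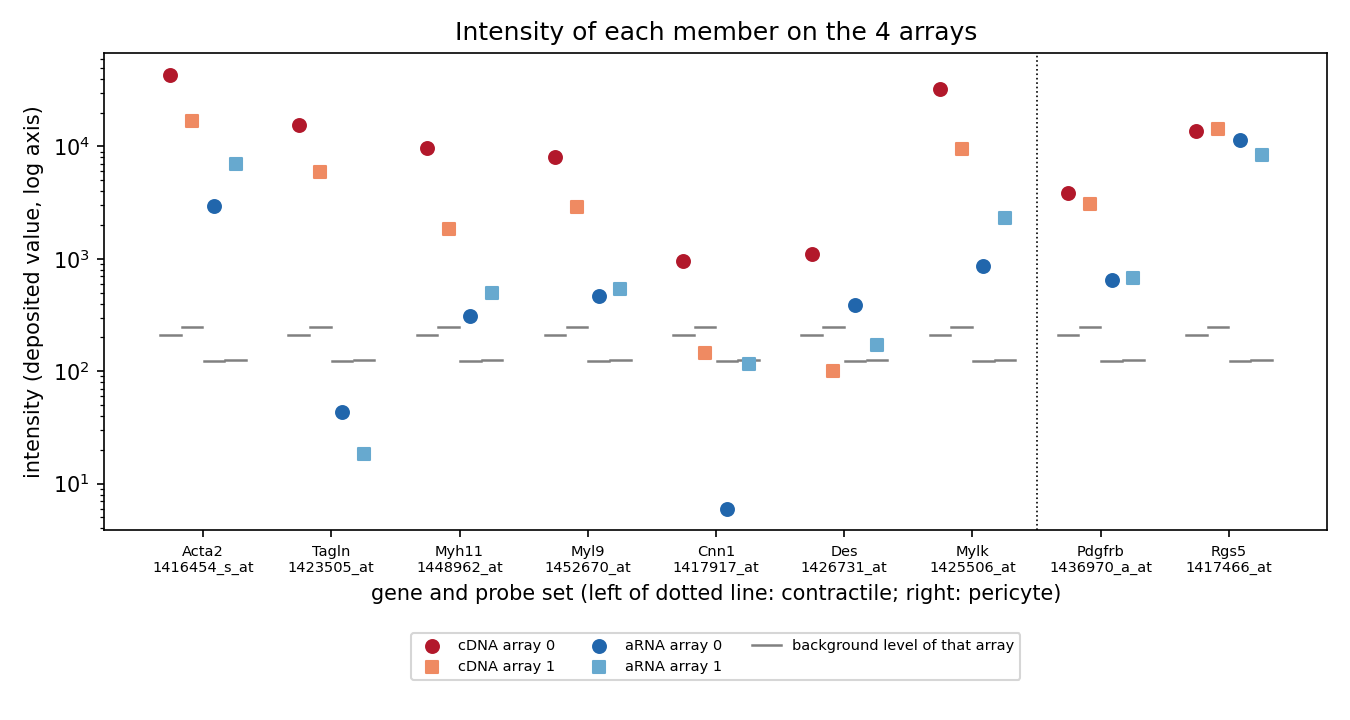
Deposited intensity (log axis) of each of the 9 genes at its brightest probe set on the 2 cDNA arrays (red and orange) and the 2 aRNA arrays (dark and light blue), with grey dashes for the background level of each array. The cDNA arrays lie above the aRNA arrays for 8 of the 9 genes, Des being the exception, and the gap is smallest for Rgs5 among those 8. Over the whole array, 34.1% of tested probe sets have both cDNA arrays above both aRNA arrays. The 8 include Cnn1, which was not tested and lies under background on all arrays but cDNA array 0.

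Acta2 encodes smooth muscle alpha-actin, the actin of the contractile filaments. At probe set 1416454_s_at it read 43514 and 16835 on cDNA arrays 0 and 1, against 2972 and 6965 on aRNA arrays 0 and 1. Both cDNA arrays lay above both aRNA arrays, and the difference was 2.57 (SE 0.49, limma adjusted p = 0.00324). It was 3.86 between the arrays numbered 0 and 1.27 between those numbered 1. The suffix _s_at marks a probe set that can match more than 1 transcript. The other Acta2 probe sets, 1444105_at and 1456658_at, read between 13.5 and 178 and lay under background on all arrays but aRNA array 1 for 1456658_at, so the Acta2 result rests on 1 probe set.

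Tagln encodes transgelin, also called SM22-alpha, an actin-binding protein of smooth muscle. Its only probe set, 1423505_at, read 15615 and 5948 on cDNA arrays 0 and 1, against 43.1 and 18.4 on aRNA arrays 0 and 1. Both aRNA values lay under background, so the excess on cDNA is at least 68.8-fold (limma adjusted p = 4.03e-05). It passed the filter on low values through the cDNA arrays alone.

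The myosin motor and its regulators were higher on cDNA as well. Myh11, the heavy chain of smooth muscle myosin, read 9726 and 1858 on cDNA arrays 0 and 1, against 312 and 498 on aRNA arrays 0 and 1, at 1448962_at. The lowest cDNA array was above the highest aRNA array, and the difference was 3.38 (SE 0.69, limma adjusted p = 0.00437). A further Myh11 probe set, 1418122_at, lay under background on all 4 arrays (24.7 to 48.3).

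Myl9, the regulatory light chain of smooth muscle myosin, read 8106 and 2868 on cDNA arrays 0 and 1, against 463 and 540 on aRNA arrays 0 and 1, at 1452670_at. The groups did not overlap, and the difference was 3.23 (SE 0.49, limma adjusted p = 0.00107). The spread was wider on cDNA (SD 1.06, n = 2) than on aRNA (SD 0.15, n = 2), a contrast that was not tested.

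Mylk, the myosin light chain kinase that phosphorylates that light chain, has 3 probe sets. At 1425506_at it read 32221 and 9519 on cDNA arrays 0 and 1, against 865 and 2298 on aRNA arrays 0 and 1, a difference of 3.62 (SE 0.59, limma adjusted p = 0.00153). At 1425505_at it read 1716 and 636 on cDNA, against 238 and 845 on aRNA, where the groups overlapped and the difference of 1.18 did not pass (95% interval −0.37 to 2.73, limma adjusted p = 0.194). At 1425504_at it read 378 and 408 on cDNA, against 122 and 224 on aRNA, too low to be tested and under background on aRNA array 0. All 3 probe sets had the higher mean on cDNA, by unlike amounts.

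Cnn1 and Des were too dim for the test. Cnn1, calponin 1, which binds actin and restrains the myosin ATPase, read 959 and 147 on cDNA arrays 0 and 1, against 5.99 and 117 on aRNA arrays 0 and 1, at 1417917_at. Only cDNA array 0 was above background. Des, desmin, the intermediate filament of muscle cells that also occurs in pericytes, read 1114 and 100.4 on cDNA arrays 0 and 1, against 385 and 171 on aRNA arrays 0 and 1, at 1426731_at. The highest and the lowest value of this probe set were both on cDNA, so the groups overlapped. Its other probe set, 1426732_at, ran the opposite way, with 5.64 and 16.3 on cDNA, both under background, and 195 and 201 on aRNA.

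Across the 7 contractile genes at their brightest probe sets, the median difference was 3.23, with the smallest value for Des (0.40) and the largest for Tagln (at least 6.10, with its aRNA values raised to background), against a median of −0.11 over all tested probe sets. Averaging all probe sets of a gene, dim ones included, gave 1.99. The median was 4.89 between the arrays numbered 0 and 1.87 between those numbered 1. For 6 of the 7 genes both cDNA arrays lay above both aRNA arrays, a pattern that 34.1% of all tested probe sets showed. The 6 include Cnn1, which was not tested and lay under background on all arrays but cDNA array 0. Without cDNA array 0 the median was 2.19.

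**Figure D2:**
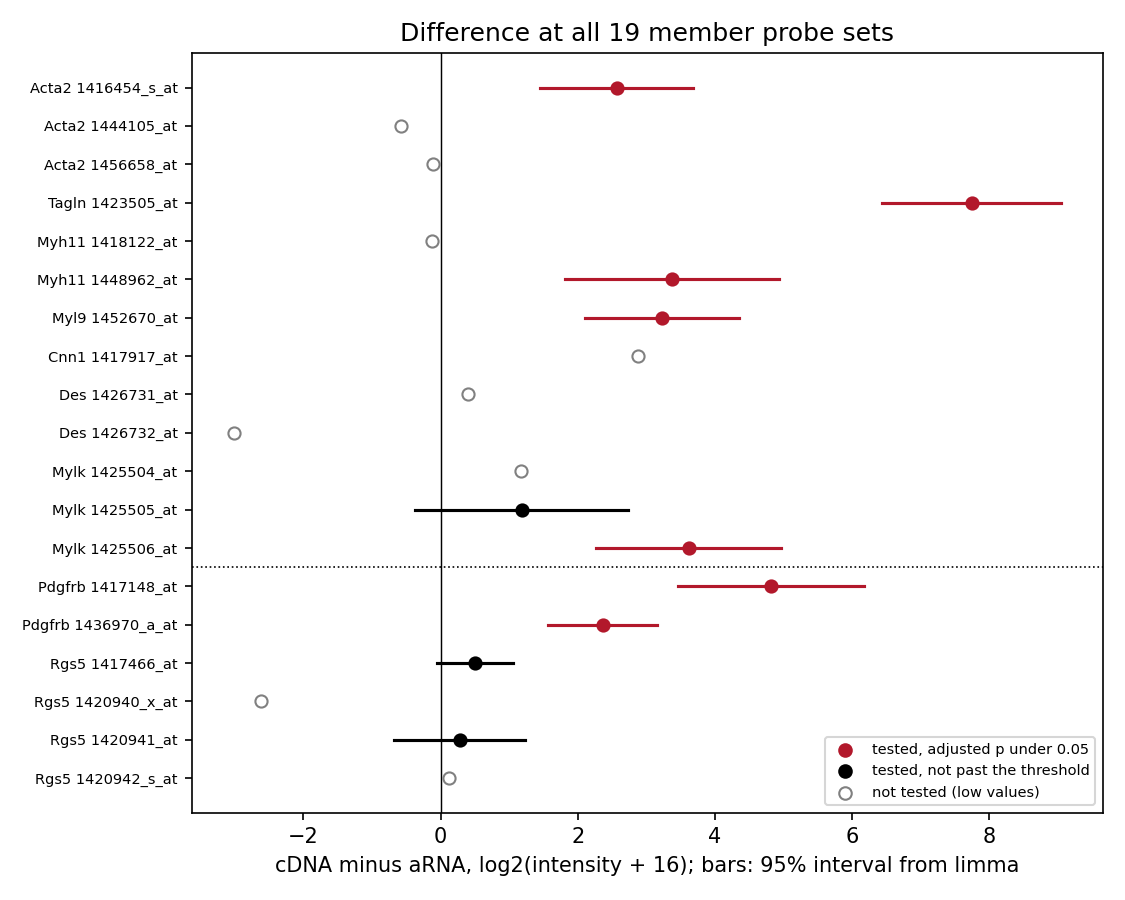
Difference between cDNA and aRNA (log2 scale, x axis) at all 19 probe sets of the 9 genes, contractile genes above the dotted line and pericyte genes below it. Bars are 95% limma intervals of tested probe sets, red those past the threshold, and open points were not tested. All 7 red points lie to the right of 0, and none of the Rgs5 points is red.

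Pdgfrb encodes the receptor for platelet-derived growth factor B, through which pericytes are recruited to vessels. At 1436970_a_at it read 3893 and 3096 on cDNA arrays 0 and 1, against 652 and 672 on aRNA arrays 0 and 1. Arrays of a preparation were close to each other and the groups were well apart, with a difference of 2.36 (SE 0.35, limma adjusted p = 0.000924). The other probe set, 1417148_at, read 2619 and 1433 on cDNA, against 34.4 and 79.1 on aRNA, both under background. There the excess on cDNA is at least 13.9-fold (limma adjusted p = 0.000368), and the probe set passed the filter on low values through the cDNA arrays alone.

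Rgs5, a regulator of G-protein signalling that is abundant in brain pericytes, did not pass the test at either tested probe set. At 1417466_at it read 13656 and 14183 on cDNA arrays 0 and 1, against 11484 and 8409 on aRNA arrays 0 and 1. The groups did not overlap, yet the difference of 0.50 had a 95% interval of −0.06 to 1.06 (limma adjusted p = 0.13). At 1420941_at it read 1188 and 1748 on cDNA, against 907 and 1545 on aRNA, where the groups overlapped (0.28, 95% interval −0.67 to 1.23, limma adjusted p = 0.617). Of the untested probe sets, 1420942_s_at read 165 and 283 on cDNA and 199 and 198 on aRNA. The other, 1420940_x_at, read 16.5 and 141 on cDNA, both under background, and 406 and 441 on aRNA, at least 1.79-fold lower on cDNA. The median of Pdgfrb and Rgs5 was 1.43 at their brightest probe sets and 1.58 with all probe sets of a gene averaged. The contractile and pericyte medians were not tested against each other.

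Genes of the same cells outside the 9 were looked up at their brightest probe sets. Of 14 further smooth muscle genes, with a median difference of 1.41, 4 were not tested and 5 did not pass. The other 5 passed, all as higher with cDNA, against 20.2% called higher and 22.9% lower over the whole array. They included the tropomyosins Tpm1 (2.76, limma adjusted p = 5.02e-05) and Tpm2 (2.47, limma adjusted p = 0.0164), which lie along actin filaments. Synpo2, an actin-bundling protein, differed by 2.55 (limma adjusted p = 0.000651) and caldesmon, Cald1, by 2.52 (limma adjusted p = 0.000297). Actg2, the gamma-actin of smooth muscle and a close relative of Acta2, read 513 and 37.6 on cDNA arrays 0 and 1, against 284 and 106 on aRNA arrays 0 and 1; it was named after its values were seen.

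Among 8 transcription factors and coactivators of mural cells, 1 was called higher, 0 lower and 4 neither (median 0.76), close to the 20.2% called higher over the whole array. The one called was Mrtfb, a coactivator of serum response factor (1.01, limma adjusted p = 0.0208). Srf itself gave −0.81 (limma adjusted p = 0.156). Myocd, which encodes myocardin, was not tested and read 1143 and 216 on cDNA arrays 0 and 1, against 98.9 and 136 on aRNA arrays 0 and 1. Srf and Myocd were named after their values were seen. Myocd lay under background on cDNA array 1 and aRNA array 0. Its highest value was on cDNA array 0. Both cDNA arrays lay above both aRNA arrays, as for 6 of the 7 contractile genes and 34.1% of all tested probe sets. With cDNA array 1 under background, this ordering is uncertain for Myocd. A link between Myocd and the contractile genes was not tested.

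Of 10 further pericyte genes, 2 were called higher, 0 lower and 6 neither (median 0.82), near the array-wide 20.2%. These were Vtn, the matrix protein vitronectin (1.83, limma adjusted p = 0.0163), and Notch3, a receptor of mural cells (1.61, limma adjusted p = 0.00617). The difference was above 0 for 8 of the 10. Cspg4 (−0.61, limma adjusted p = 0.33) and Abcc9 (−0.17, limma adjusted p = 0.81) ran the other way and did not pass. For Cspg4 both cDNA arrays lay under both aRNA arrays. Cspg4 and Abcc9 were named after their values were seen. Of 8 ligands and receptors that act in mural cell recruitment, 3 were called higher, against the same 20.2%, 0 lower and 5 neither (median 0.58). Jag1, a Notch ligand, differed by 2.90 (limma adjusted p = 0.00386), Tek, the angiopoietin receptor, by 2.49 (limma adjusted p = 0.00192) and Pdgfd, a ligand of the receptor that Pdgfrb encodes, by 1.76 (limma adjusted p = 0.000514). Pdgfb, the ligand made by endothelium, gave −1.11 and did not pass (limma adjusted p = 0.112); it was named after its values were seen.

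Near relatives of the contractile genes that are not specific to smooth muscle went both ways. Of 16 such genes, 6 passed as higher with cDNA and 3 as lower, 3 did not pass, and the median was −0.19. Over the whole array 20.2% of tested probe sets were called higher and 22.9% lower. Vim, an intermediate filament gene like Des, differed by 4.63 (limma adjusted p = 0.000156), Myh9, a non-muscle myosin heavy chain, by 3.34 (limma adjusted p = 0.000311) and Cnn2, a calponin of non-muscle cells, by 2.35 (limma adjusted p = 0.00417). Tagln2, a relative of Tagln, was lower, with 414 and 929 on cDNA arrays 0 and 1, against 4144 and 16513 on aRNA arrays 0 and 1 (−3.70, limma adjusted p = 0.0018). The other non-muscle myosin heavy chains, Myh10 (−1.44) and Myh14 (−2.13), named after their values were seen, were also called lower.

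Some markers of other cell types were also higher on cDNA. Over the whole array 20.2% of tested probe sets were called higher with cDNA and 22.9% lower. The summed intensity of the 7 contractile genes was 111254 and 37276 on cDNA arrays 0 and 1, against 5046 and 10609 on aRNA arrays 0 and 1. That of 10 fibroblast genes of meninges and vessels was 78914 and 43217 on cDNA, against 45017 and 26485 on aRNA. Dcn made up most of the aRNA sums, with 8369 and 4238 on cDNA, against 39731 and 19658 on aRNA. The median difference of the list was 3.05, with 8 genes called higher, 1 lower and 1 neither. The largest called were Foxc2 (at least 45.2-fold), Col1a1 (4.37), Foxc1 (3.76) and Igf2 (3.67). Foxc2, Col1a1 and Foxc1 passed the filter on low values through their cDNA means. Of the 10 genes, 10 were above background on each cDNA array and 9 on each aRNA array. The summed intensity of 9 endothelial genes was 25873 and 12146 on cDNA, against 7049 and 7391 on aRNA. Their median difference was 0.65, with 3 called higher, 0 lower and 3 neither. Of the 9, 7 were above background on each cDNA array, 6 on aRNA array 0 and 9 on aRNA array 1. The endothelial genes called were Vwf (at least 15.9-fold, limma adjusted p = 0.00536), Flt1 (2.17, limma adjusted p = 0.00248) and Slco1a4 (1.11, limma adjusted p = 0.0203), of which Vwf, under background on aRNA array 0, passed the filter on low values through its cDNA mean. Not all members followed: Kdr read 115 and 212 on cDNA, both under background, against 491 and 752 on aRNA, at least 2.54-fold lower on cDNA, Esam gave −0.05 (limma adjusted p = 0.938), and the fibroblast gene Dcn was called lower (−2.23). Kdr, Esam and Dcn were named after their values were seen. Of 5 choroid plexus genes, 3 were called higher, 0 lower and 1 neither (median 2.97), with Ttr at 8.25 (limma adjusted p = 7.32e-06). The other choroid plexus genes called, Kcnj13 and Kcne2, passed the filter on low values through their cDNA means. On aRNA arrays 0 and 1, Kcne2 read 64.8 and 54.7, each less than the background level. Kcnj13 read 711 on aRNA array 0 and, below that level, 62.2 on aRNA array 1. Of 4 blood genes (median 4.08), S100a8 and S100a9 were called higher. Both lay under background on both aRNA arrays and passed the filter on low values through the cDNA arrays alone. The part of all these cells in the result was not tested. Skeletal muscle genes, which share Des with vessels, summed to 1631 and 1247 on cDNA, against 921 and 1257 on aRNA, and of 10 genes 3 and 2 were above background on cDNA and 3 and 5 on aRNA. The creatine kinase gene Ckm and the skeletal actin gene Acta1, named after their values were seen, lay under background on both cDNA arrays. On aRNA arrays 0 and 1 both lay above it, with 136 and 176 for Ckm and 187 and 129 for Acta1, against levels of 123 and 126.

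**Figure D3:**
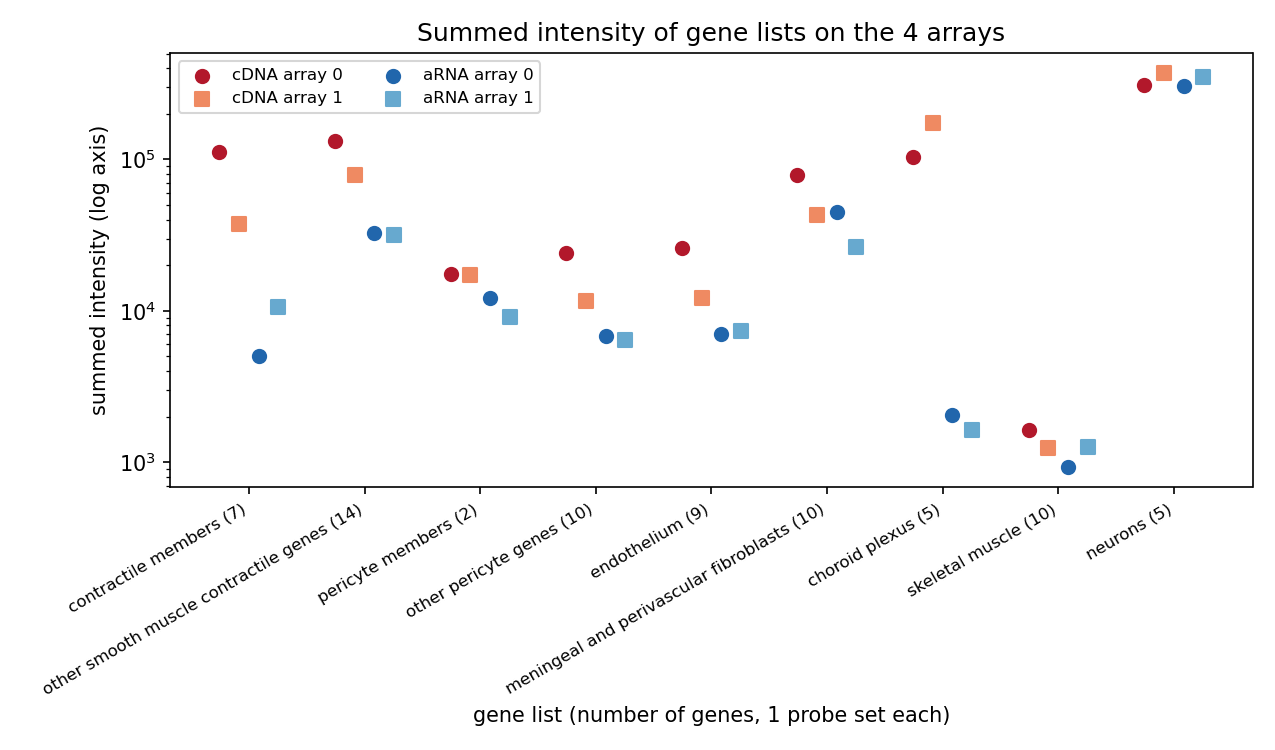
Summed intensity (log axis) of 9 gene lists on the 2 cDNA arrays (red and orange) and the 2 aRNA arrays (blue), with 1 probe set per gene and the number of genes in brackets. The contractile sum spans 5046 to 111254. In every list drawn but choroid plexus genes and neurons, cDNA array 0 is the highest array, skeletal muscle included. For Pdgfrb and Rgs5 its lead over cDNA array 1 is small (17549 against 17278).

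The arrays numbered 1 and 0 gave no call for these genes across the preparations. By limma with preparation as a term, 0 of the 10 tested probe sets passed in either direction (adjusted p from 0.848 to 0.999), where over the whole array 0.0533% passed as higher on number 1 and 0.00888% as lower. At an unadjusted p under 0.05 by limma's moderated test there was 1, Tagln, whose aRNA values lie under background, against 5.86% of all tested probe sets. The median difference was −0.64 for the contractile genes and −0.17 for the pericyte genes.

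Within each preparation the contractile genes differed between the numbers, in opposite directions for most of them. On the cDNA arrays all 7 were lower on array 1 than on array 0, with differences of −1.37 (Acta2) to −3.28 (Des) and a median of −1.76. A step down of 1 or more was found at 7.48% of all tested probe sets, whose median was −0.018. On the aRNA arrays 5 of the 7 were higher on array 1 than on array 0, with a median of 0.65, and 49.6% of all tested probe sets were higher. Of these 5, Cnn1 lay under background on both aRNA arrays, as did Tagln, 1 of the 2 that were lower. A step up of 1 or more was seen for Acta2, Mylk and Cnn1, and at 4.66% of all tested probe sets. Each of these differences compares 1 array with 1 array and has no replicate check. The aRNA arrays also differed in Xist and Eif2s3y, and the part of sex in these steps was not tested.

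Mylk and Acta2 show the pattern above background on every array. Mylk at 1425506_at read 9519 on cDNA array 1 against 32221 on cDNA array 0 (−1.76), and 2298 on aRNA array 1 against 865 on aRNA array 0 (1.39). Acta2 read 16835 on cDNA array 1 against 43514 on cDNA array 0 (−1.37), and 6965 on aRNA array 1 against 2972 on aRNA array 0 (1.22). Cnn1 also differed by more than 1 each way (−2.58 and 2.60), but 3 of its 4 values lay under background. A step of 1 or more down on cDNA and up on aRNA was found at 0.582% of all tested probe sets.

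Myh11 read 1858 on cDNA array 1 against 9726 on cDNA array 0 (−2.38), and 498 on aRNA array 1 against 312 on aRNA array 0 (0.65). Myl9 gave −1.49 on cDNA and 0.22 on aRNA. Des was lower on array 1 in both preparations (−3.28 and −1.10), with cDNA array 1 under background. Tagln gave −1.39 on cDNA, and on aRNA both values lay under background.

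The pericyte genes gave these differences between the numbers. Pdgfrb at 1436970_a_at gave −0.33 on cDNA and 0.042 on aRNA, and Rgs5 at 1417466_at gave 0.055 on cDNA and −0.45 on aRNA. At the dimmer probe set 1417148_at, Pdgfrb gave −0.86 on cDNA. Rgs5 at 1420941_at was higher on array 1 in both preparations, by 0.55 on cDNA and 0.76 on aRNA. The difference between the groups of genes was not tested.

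**Figure D4:**
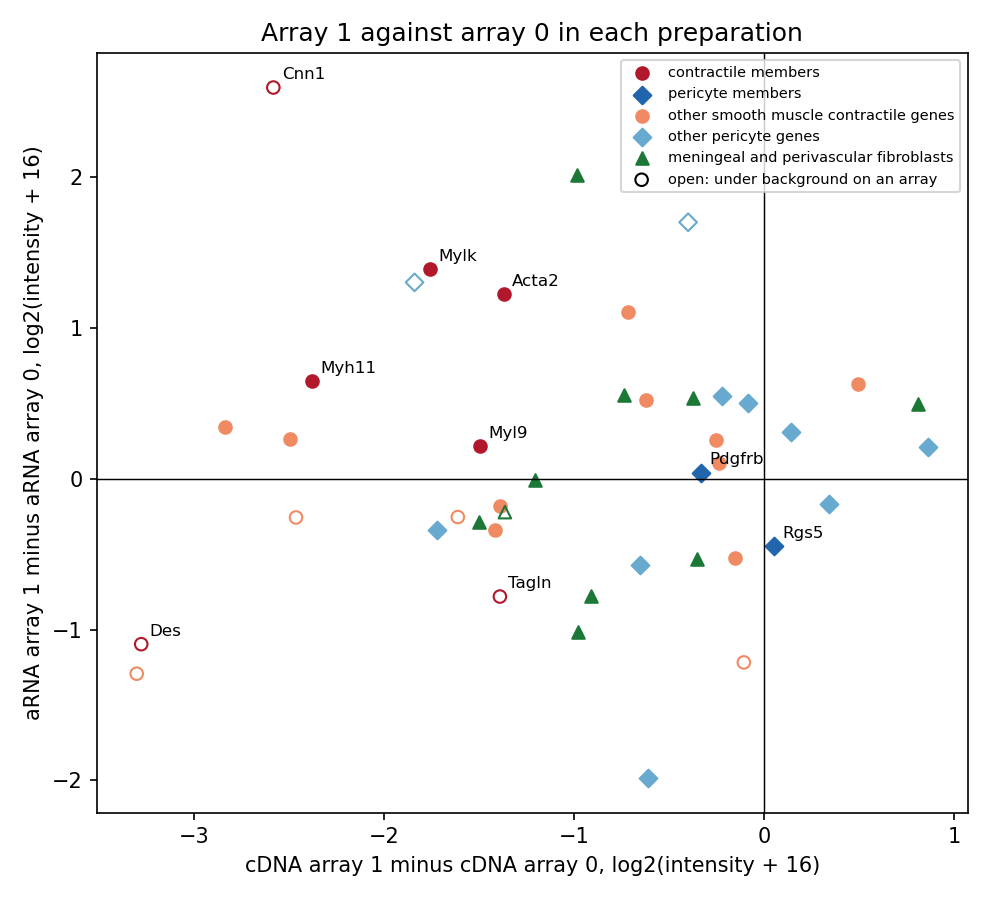
Array 1 minus array 0 on the log2 scale, on cDNA (x axis) and on aRNA (y axis), for the 9 genes (labelled), further smooth muscle and pericyte genes and fibroblast genes. Each point is 1 gene at its brightest probe set, and open symbols were under background on 1 or more arrays. All 7 contractile genes lie left of −1 on the x axis, and Pdgfrb and Rgs5 lie near the centre.

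Other vessel and meningeal genes were mostly lower on cDNA array 1 than on cDNA array 0 too. This held for 13 of 14 further smooth muscle genes (median −1.05), 9 of 10 fibroblast genes (median −0.94), 7 of 9 endothelial genes (median −0.72) and 7 of 10 further pericyte genes (median −0.31), where 51.3% of all tested probe sets were lower. On aRNA, array 1 was above array 0 for 7 of 14, 4 of 10, 5 of 9 and 6 of 10 of the same lists, in that order. The part of these cells in the step between the cDNA arrays was not tested.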

How the data were processed

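The 9 genes and all lists were chosen with earlier results of these data known. The authors' deposited intensity values, 1 per probe set and array on a linear scale, already share a trimmed mean and were used as they stand. The sources used here do not name the software that summarised the probes. Values were taken as log2(intensity + 16). The 64 control probe sets were left out, and of the other 45037 the 22519 with a mean at or above the median (8.38) were tested, in 1 fit with limma 3.58.1 in R 4.3.3 (lmFit, then eBayes with trend = TRUE; Benjamini-Hochberg over all 22519, threshold 0.05). The preparations were compared with 2 residual degrees of freedom, and the numbers, with preparation as a term, with 1. The number of arrays limits the precision. A fold against a value under background is a lower bound, taken against the higher of the background level and the value on each array.

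Symbols came from the platform annotation (34945 probe sets with 1 symbol, 932 with several, 9160 with none) and were updated through gene identifiers in the RefSeq table, which held 34741 of those with 1 symbol. For list counts and medians each gene kept its probe set with the highest mean. Named genes outside the 9 were up to 4 called genes per list with the largest difference; others are marked in the text. Coordinates are given only for the printed promoter windows. The fits were tested on simulated data. Python 3.11.15 with matplotlib 3.10.9 drew the figures.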

Additional observations from a re-analysis of the deposited data

Results flagged for a closer look

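Of the 9 genes, 8 probe sets lay above background on all 4 arrays. At 7 of them, array 1 lay on opposite sides of array 0 in the 2 preparations. Of the 7, all but Rgs5 at 1417466_at were lower on cDNA array 1 and higher on aRNA array 1. That direction, by any amount, held for 24.7% of all tested probe sets. Rgs5 ran the other way, and the array-wide share of opposite steps in either direction was not counted. Over all tested probe sets, 51.3% were lower on cDNA array 1 and 49.6% higher on aRNA array 1. Among the 7, the step of Pdgfrb on aRNA (0.042) and that of Rgs5 on cDNA (0.055) were small. The step from array 0 to array 1 on cDNA minus that on aRNA was −3.17 and −3.15 at Mylk probe sets 1425505_at and 1425506_at, −3.02 for Myh11, −2.59 for Acta2 and −1.71 for Myl9. It was −0.37 for Pdgfrb at 1436970_a_at and 0.50 for Rgs5 at 1417466_at. With 1 array per preparation and number, none of these differences could be tested.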

How the results depend on the processing

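The count of probe sets called higher on cDNA was 7, and 6 to 7 under all alternatives but a filter at the 75th percentile, where 7 of the 10 were no longer tested and 2 were called. Without a filter Des probe set 1426732_at was called lower, the 1 such call. With the number as a replicate block the count was again 7. Deviations of same-numbered arrays correlated at 0.04 over the tested probe sets, and the labels do not pair the arrays. With 1 array left out, the lone array of its preparation was assumed to vary like the pair, and the contractile median ran from 2.19 (without cDNA array 0) to 4.17 (without cDNA array 1). Averaging all probe sets of a gene gave medians of 1.99 (contractile) and 1.58 (pericyte), and centring each array on its median gave 1.28 for the pericyte genes and moved the median of all tested probe sets to −0.25. Without probe sets named _x_at or _s_at, Acta2 fell back on a dim probe set (−0.11 between preparations, 0.17 between numbers). With 1 array left out Des ran from −1.23 (without cDNA array 0) to 2.04 (without cDNA array 1), and gave −0.14 without aRNA array 1. The other 123 gene differences between preparations kept their direction and their side of the threshold, or, untested, stayed within 1 SD.

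Between the numbers no setting gave a call. The pericyte median turned to 0.22 with all probe sets averaged. On aRNA alone the contractile median was 0.65, with Acta2 at 1.22, Mylk at 1.39, Myh11 at 0.65, Myl9 at 0.22 and Pdgfrb at 0.042; on cDNA alone Rgs5 was 0.055 and Cnn1 −2.58. Cnn1, at 0.0068, also turned to −0.45 with a pseudocount of 64, −0.028 with centring, −0.025 with quantile normalization and −0.93 with values under background raised to it. The cause was not tested beyond what each alternative's construction shows. Signal near background limits Cnn1, Des and the aRNA values of Tagln.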

Other observations

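Some lists ran the other way between the cDNA arrays. All 5 choroid plexus genes looked up were higher on cDNA array 1 than on cDNA array 0 (median 1.97), with a summed intensity of 174689 on array 1 and 103778 on array 0. S100a8 and S100a9, calcium-binding proteins of neutrophils, were also higher on cDNA array 1, by 2.37 and 1.69, while the other blood genes looked up, Hba-a1 (0.11) and Alas2 (−1.60), lay under background on both cDNA arrays. Skeletal muscle genes were lower on cDNA array 1 for 7 of 10 (median −0.52), with 3 of the 10 above background on cDNA array 0 and 2 on cDNA array 1. The 5 neuronal genes were higher on cDNA array 1 as well, with a median of 0.26. These are values of 1 array against 1 array, with no test, and the genes were chosen after their values were seen.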
